A study of Mus musculus with 6 samples.

Results

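The genes of de novo lipogenesis, the synthesis of fatty acids from sugar carbon, were compared between the livers of 3 WT and 3 TRIM24C52/55A knockin mice on a high-fat diet (HFD). The genes were chosen by name, for their role in the pathway, but with earlier results of these data known. They were *Acly*, *Acaca*, *Acacb*, *Fasn*, *Scd1*, *Me1*, *Thrsp*, *Slc25a1*, *Slc25a10* and *Srebf1*, and all 10 were listed in every library, out of 21528 genes listed in any library. RNA came from C57BL/6 mice aged 5 months that had been given a diet with 60% fat for 3 months, with 1 library per mouse. The WT mice carried normal *Trim24*, and in the knockin line alanine replaced Cys52 and Cys55 in the RING E3-ligase domain of the TRIM24 protein. The line was made with CRISPR/Cas9 on a C57Bl/6J background and homozygous knockin mice were compared with WT littermates. The substitution is present in the whole body, so differences in the liver need not start in hepatocytes. The labels give neither the feeding state nor the hour at which the livers were taken.

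In this pathway citrate leaves the mitochondrion through the carrier SLC25A1 and is split by ATP-citrate lyase (*Acly*) to acetyl-CoA. Acetyl-CoA carboxylases (*Acaca* in the cytosol, *Acacb* at the mitochondrial surface) make malonyl-CoA, fatty acid synthase (*Fasn*) builds palmitate from it with NADPH, and stearoyl-CoA desaturase (*Scd1*) adds a double bond. In the liver this pathway is driven by insulin and dietary sugar through the transcription factors SREBP-1c, encoded by *Srebf1*, and ChREBP, encoded by *Mlxipl*.

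Values are FPKM as deposited, fragments scaled to transcript length and to the size of the library, so levels can be compared between genes. Differences between genotypes were tested on log2(FPKM + 1) with limma, for the 12225 genes that averaged 0.5 FPKM or more. P-values were adjusted with the Benjamini-Hochberg method over all of these genes, and an adjusted p under 0.05 was taken as the threshold. Fold changes are the TRIM24C52/55A mean less the WT mean on this log2 scale. FPKM hold no read totals. The commonest ratio of low values put the relative depths of the libraries at 0.963 to 1.03, with WT replicate 1 set to 1. Only ratios near 1 were counted, so a large difference in depth could not show. *Trim24* had 4.85 to 5.96 FPKM in WT and 4.31 to 8.46 FPKM in TRIM24C52/55A libraries, which does not check the labels because the substitution leaves the gene in place. The 8 hepatocyte markers read here (*Apoa1*, *Ttr*, *Hnf4a* and others) summed to between 18510.0 and 20580.0 FPKM in every library. Most of the sum came from abundant markers such as *Apoa1* and *Ttr*, with WT means of 6182 and 5426 FPKM. Of the 8, *Cps1* was higher in TRIM24C52/55A livers (log2 fold change 0.63, limma adjusted p = 0.0281). *Cyp2e1* (-0.54, limma adjusted p = 0.0318) and *Asgr1* (-0.31, limma adjusted p = 0.0482) were lower. The remaining 5 did not pass, where 7.72% of all genes tested passed in either direction. *Alb* and *Tf* were also on the marker list but had no entry among the genes read here, so the sum leaves them out.

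To show what lies in front of these genes, the 250 bases before the start are printed for 2 of the 3 genes whose fall passed the test (*Fasn* and *Slc25a10*). They are also printed for the 2 with the smallest differences (*Acly* and *Slc25a1*). The windows come from RefSeq on build GRCm38.p6 and are written 5′ to 3′ on the strand of the gene. Capitals mark 3 motifs on either strand. They are CCAAT, which NF-Y binds, then GGGCGG, the GC box of SP1 family proteins, and lastly the E box CACGTG. The window of *Fasn* is chr11:120824548-120824797 on the - strand, that of *Slc25a10* chr11:120491587-120491836 on the + strand, that of *Acly* chr11:100528001-100528250 on the - strand and that of *Slc25a1* chr16:17928220-17928469 on the - strand.
Fasn: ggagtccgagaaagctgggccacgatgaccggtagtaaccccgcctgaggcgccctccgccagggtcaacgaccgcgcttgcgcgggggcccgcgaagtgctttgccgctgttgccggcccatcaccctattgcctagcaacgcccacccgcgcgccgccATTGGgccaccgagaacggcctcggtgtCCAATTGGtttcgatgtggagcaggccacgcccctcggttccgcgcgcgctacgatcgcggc
Slc25a10: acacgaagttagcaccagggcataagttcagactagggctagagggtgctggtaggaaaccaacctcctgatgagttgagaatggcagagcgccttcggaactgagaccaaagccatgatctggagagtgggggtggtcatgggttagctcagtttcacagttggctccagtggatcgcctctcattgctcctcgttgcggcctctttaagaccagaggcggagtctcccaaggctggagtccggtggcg
Acly: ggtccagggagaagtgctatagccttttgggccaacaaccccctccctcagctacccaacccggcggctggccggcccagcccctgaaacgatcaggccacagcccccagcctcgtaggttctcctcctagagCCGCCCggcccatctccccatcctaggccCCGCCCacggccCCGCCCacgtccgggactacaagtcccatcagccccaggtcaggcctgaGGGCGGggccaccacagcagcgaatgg
Slc25a1: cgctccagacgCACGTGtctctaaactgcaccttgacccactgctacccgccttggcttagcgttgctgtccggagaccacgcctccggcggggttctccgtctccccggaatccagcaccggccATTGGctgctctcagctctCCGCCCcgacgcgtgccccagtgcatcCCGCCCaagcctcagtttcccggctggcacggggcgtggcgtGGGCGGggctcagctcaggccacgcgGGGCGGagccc
The window of *Fasn* held CCAAT at 3 places, of which 2 overlap on opposite strands, and no GGGCGG. The window of *Slc25a10* held none of these letters. *Me1*, whose fall also passed, is not printed. Its window at chr9:86695915-86696164 held GGGCGG at 3 places, and that at chr9:86687278-86687527 held CCAAT at 1. GGGCGG was thus found both in front of a gene that passed and in front of genes that did not. The window of *Acly* held GGGCGG at 4 places, and that of *Slc25a1* held GGGCGG at 4, CCAAT at 1 and CACGTG at 1. RefSeq windows were matched by symbol for 9 of the 10 genes, all except *Scd1*, with 12 windows in all since *Me1* and *Srebf1* have several starts. The only windows of *Acaca* (chr11:84195188-84195437) and *Acacb* (chr5:114165268-114165517) lay inside the gene intervals given below, not in front of their first base. CCAAT was present in 7 of the 12 windows, against 33.8% of all 32851 windows of that length. GGGCGG was present in 5 of 12 (32.7% of all), CACGTG in 1 of 12 (6.02% of all) and TCACNCCAC, letters within the classical sterol regulatory element, in 0 of 12 (1.05% of all). These matches describe the letters only.

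Of the 10 genes, 3 fell in the TRIM24C52/55A liver with an adjusted p under 0.05 (limma), 0 rose and 7 did not pass. Over all genes tested, 7.72% passed by the same rule, with 6.09% falling and 1.64% rising. The 3 were *Me1*, *Slc25a10* and *Fasn*. All 10 fold changes lay below 0, as did 65.5% of those of all genes, and their median was -1.001 against -0.08 over all genes tested. In 6 of the 10 every TRIM24C52/55A library lay below every WT library, where 22.5% of all genes did so and 28.9% were without overlap in either direction. An unadjusted p under 0.05 (limma) was reached by 9 of the 10, all lower, against 19.0% of all genes in that direction and 23.6% in either. For a single gene the exact permutation test of 3 against 3 mice cannot give a two-sided p under 0.1, and these 6 had that value.

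**Figure D1:**
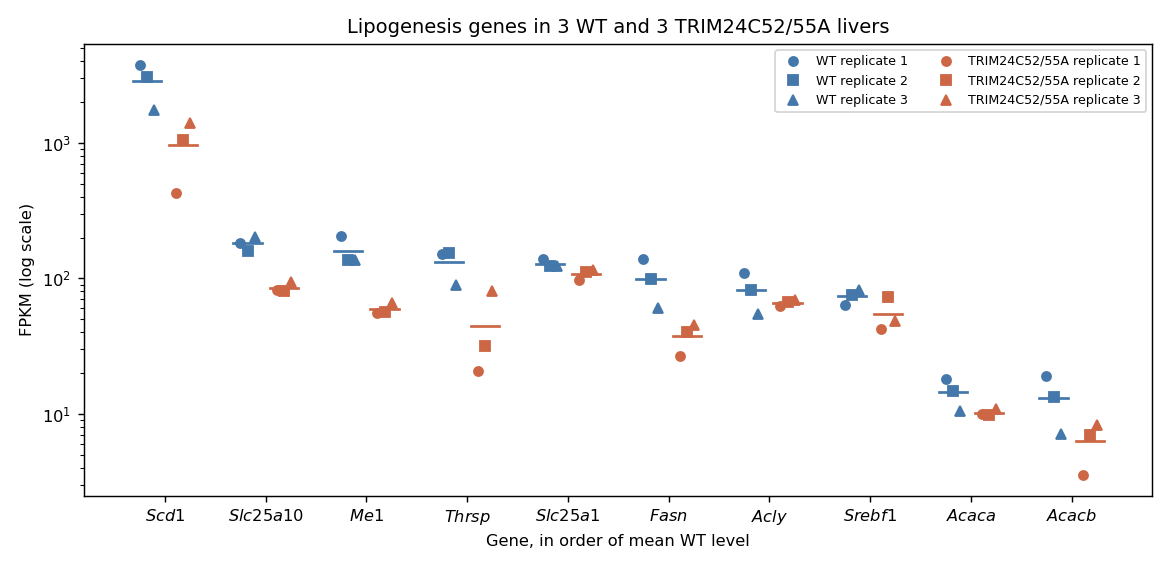
FPKM (log axis) of the 10 lipogenesis genes in each liver, in order of mean WT level; blue symbols are WT and orange symbols TRIM24C52/55A mice, the symbol shape gives the replicate number and the short line the mean of 3 livers. *Scd1* stands above the rest in every library, and *Me1* and *Slc25a10* show the clearest gap between genotypes.

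Levels differed widely between these genes. *Scd1* had the highest mean WT level, with 2861 ± 1032 FPKM (SD, n = 3), followed by *Slc25a10* with 181 ± 21.7, *Me1* with 159 ± 39.4 and *Thrsp* with 131 ± 36.7 FPKM. Next came *Slc25a1* with 128 ± 9.0, *Fasn* with 98.9 ± 38.7, *Acly* with 81.8 ± 27.4 and *Srebf1* with 73.8 ± 9.66 FPKM. The carboxylases were lowest, with 14.5 ± 3.86 FPKM for *Acaca* and 13.2 ± 6.00 FPKM for *Acacb*. Neighbours from *Slc25a10* down to *Srebf1* differed by less than their spread, as did the carboxylases from each other, whereas the steps below *Scd1* and above *Acaca* were larger than the spread. Together the 10 genes made up 0.389% to 0.743% of all FPKM in WT and 0.123% to 0.286% in TRIM24C52/55A libraries, with no overlap. *Scd1* alone held 69.4% to 78.7% of that sum in WT, and 51.6%, 68.8% and 72.2% in TRIM24C52/55A replicates 1 to 3.

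The supply of citrate carbon to the cytosol showed the smallest differences. *Slc25a1*, the citrate carrier of the inner mitochondrial membrane (chromosome 16, 17925211 to 17928219), had 139, 123 and 123 FPKM in WT and 97.6, 112 and 116 FPKM in TRIM24C52/55A replicates 1 to 3. The groups did not overlap, but the gap was small, a log2 fold change of -0.24 (limma adjusted p = 0.155, standard error 0.09). *Acly* (chromosome 11, 100476353 to 100528000) had 109, 81.7 and 54.4 FPKM in WT and 62.8, 66.6 and 69.0 FPKM in TRIM24C52/55A replicates. WT replicate 3 lay below all TRIM24C52/55A livers, which were within 1.10-fold of each other. The log2 fold change of *Acly* was -0.25 (95% confidence interval -0.74 to 0.24, adjusted p = 0.544 from limma), and without WT replicate 1 it was -0.01.

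The carboxylases, which make malonyl-CoA, were lower on average but did not pass the test. *Acaca* (chromosome 11, 84129672 to 84401651) encodes the ACC1 enzyme and had 18.2, 14.8 and 10.5 FPKM in WT and 9.98, 9.78 and 10.9 FPKM in TRIM24C52/55A replicates 1 to 3. *Acacb*, which encodes ACC2 (chromosome 5, 114146535 to 114250761), had 19.1, 13.3 and 7.12 FPKM in WT and 3.54, 7.01 and 8.33 FPKM in TRIM24C52/55A replicates. In both genes WT replicate 3 reached into the range of the TRIM24C52/55A livers. The log2 fold changes were -0.44 for *Acaca* (limma adjusted p = 0.167, standard error 0.17) and -0.93 for *Acacb* (limma adjusted p = 0.158, standard error 0.35). Without WT replicate 3 the adjusted p of *Acaca* was 0.0452 (limma), with a log2 fold change of -0.64, and over its 16 alternatives it ran from 0.0452 to 0.394. The log2 fold change of *Acacb* was -0.62 without TRIM24C52/55A replicate 1, with an adjusted p of 0.411 (limma), the highest of 16 alternatives that began at 0.0826.

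Fatty acid synthase fell. *Fasn* (chromosome 11, 120805846 to 120824547), which carries out every step from malonyl-CoA to palmitate, had 138, 98.1 and 60.7 FPKM in WT and 26.7, 40.2 and 45.3 FPKM in TRIM24C52/55A replicates 1 to 3. Every TRIM24C52/55A liver was below the lowest WT liver, and the WT livers themselves differed by 2.27-fold. The log2 fold change was -1.34 (limma adjusted p = 0.0317, standard error 0.29). The call was lost without WT replicate 1 (log2 fold change -1.06, adjusted p = 0.0827), without WT replicate 2 (-1.30, adjusted p = 0.0916) and without TRIM24C52/55A replicate 1 (-1.12, adjusted p = 0.114, all from limma). Over 16 alternatives it held in 8, with adjusted p-values (limma) from 0.0186 to 0.114.

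*Scd1* and *Thrsp* had the largest fold changes and also the widest spread. *Scd1*, which makes oleate and palmitoleate (chromosome 19, 44394451 to 44407709), had 3773, 3069 and 1741 FPKM in WT and 426, 1050.0 and 1399 FPKM in TRIM24C52/55A replicates 1 to 3. The groups did not overlap, with a 3.28-fold range among the TRIM24C52/55A livers. The log2 fold change was -1.67 (95% confidence interval -2.67 to -0.67, adjusted p = 0.0560 from limma). *Scd2*, a close copy near *Scd1* between which the quantification could split reads, had 0.9998 to 1.81 FPKM in any library. *Thrsp*, also called Spot 14 (chromosome 7, 97412938 to 97417730), encodes a small protein that acts with its relative MID1IP1 on acetyl-CoA carboxylase. It had 151, 154 and 88.9 FPKM in WT and 20.7, 31.8 and 80.2 FPKM in TRIM24C52/55A replicates. TRIM24C52/55A replicate 3 came close to WT replicate 3, and the other two were far below. The log2 fold change of *Thrsp* was -1.73 (95% confidence interval -2.73 to -0.73, adjusted p = 0.0504 from limma). Without TRIM24C52/55A replicate 3 both genes passed the threshold, with log2 fold changes of -2.02 for *Scd1* (adjusted p = 0.0314) and -2.27 for *Thrsp* (adjusted p = 0.00371 from limma). Over 16 alternatives the adjusted p ran from 0.0314 to 0.163 for *Scd1* and from 0.00371 to 0.149 for *Thrsp*.

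*Me1* and *Slc25a10* fell, with a clear gap between the genotypes. *Me1*, cytosolic malic enzyme, turns malate to pyruvate and yields NADPH for fatty acid synthase (chromosome 9, 86581371 to 86701253). It had 204, 136 and 137 FPKM in WT and 55.4, 56.0 and 65.8 FPKM in TRIM24C52/55A replicates 1 to 3. Even the lowest WT liver had more than any TRIM24C52/55A liver by a wide margin, and the log2 fold change was -1.39 (limma adjusted p = 0.00304, standard error 0.16). *Slc25a10*, the mitochondrial dicarboxylate carrier, exchanges malate and succinate for phosphate (chromosome 11, 120489406 to 120499187). It had 182, 159 and 202 FPKM in WT and 81.4, 81.1 and 93.4 FPKM in TRIM24C52/55A replicates. The livers of each genotype lay close together, within 1.27-fold in WT and 1.15-fold in TRIM24C52/55A mice, and the log2 fold change was -1.07 (limma adjusted p = 0.00165, standard error 0.11). Both genes kept an adjusted p under 0.05 (limma) in each of 16 alternatives, up to 0.0254 for *Me1* and 0.0151 for *Slc25a10*.

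*Srebf1* (chromosome 11, 60105013 to 60222581 as the files give it) had 63.2, 76.0 and 82.1 FPKM in WT and 42.1, 72.4 and 48.3 FPKM in TRIM24C52/55A replicates 1 to 3. TRIM24C52/55A replicate 2 lay within the WT range and the other two below it. The log2 fold change was -0.47 (95% confidence interval -0.90 to -0.03, adjusted p = 0.185 from limma). Without TRIM24C52/55A replicate 2 it was -0.69 with an adjusted p of 0.0203 (limma), the only one of 16 alternatives under 0.05 in a range up to 0.459. The files' interval for *Srebf1* spans 117.6 kb and takes in *Rai1*, against 23.5 kb for the gene in GENCODE M21, and whether fragments of the neighbour were counted was not tested. FPKM also do not measure how much SREBP-1 protein is cleaved to its active form, which is a main point of control.

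**Figure D2:**
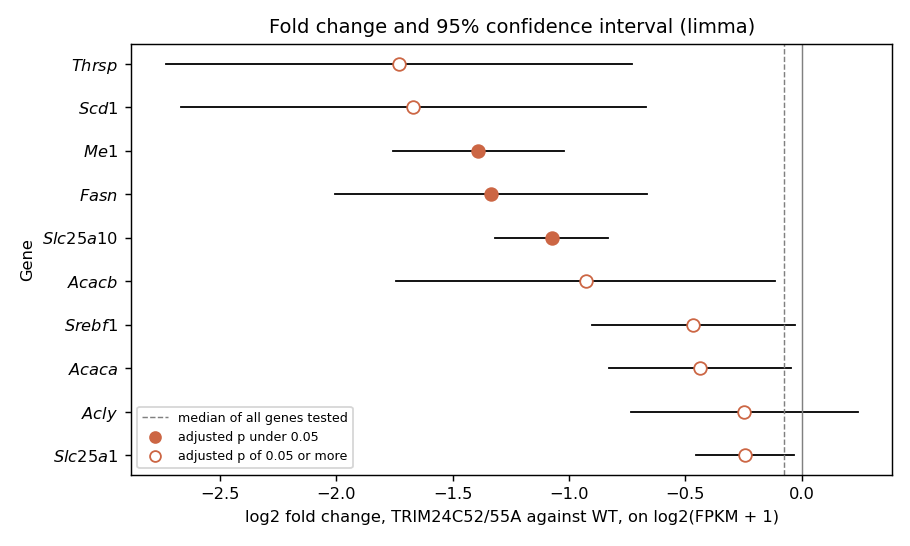
Log2 fold change between TRIM24C52/55A and WT livers (horizontal axis, on log2(FPKM + 1)) with its 95% confidence interval from limma for each lipogenesis gene; filled points have an adjusted p under 0.05 and the dashed line is the median of all genes tested. All 10 points lie below 0, and the intervals of *Thrsp* and *Scd1* are the widest.

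Since FPKM are per length, each gene was also set against *Fasn* in the same library, which cancels the scaling of the library. This comparison was chosen after the data were seen. *Acly* had 0.791, 0.833 and 0.897 times the FPKM of *Fasn* in WT and 2.35, 1.66 and 1.52 times in TRIM24C52/55A replicates 1 to 3. *Slc25a1* had 1.0, 1.25 and 2.03 times in WT and 3.65, 2.77 and 2.56 times in TRIM24C52/55A replicates. *Acaca* had 0.132, 0.151 and 0.173 times in WT and 0.374, 0.243 and 0.241 times in TRIM24C52/55A replicates. In these 3 genes every TRIM24C52/55A ratio was above every WT ratio, with differences in the mean log2 ratio of 1.11, 1.11 and 0.89. *Fasn* itself fell, so any gene that fell less has a higher mean ratio in TRIM24C52/55A livers. The ratios therefore restate the fall of *Fasn* beside the smaller changes of these genes. How many of all genes would separate in this way was not computed. For the other 6 genes the ratios of the genotypes overlapped, with differences from -0.40 (*Thrsp*) to 0.89 (*Srebf1*). Over the 9 ratios the exact permutation p was 0.1 at the lowest, the smallest it can be (two-sided, 0.3 after Benjamini-Hochberg adjustment), so none can pass in this design.

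**Figure D3:**
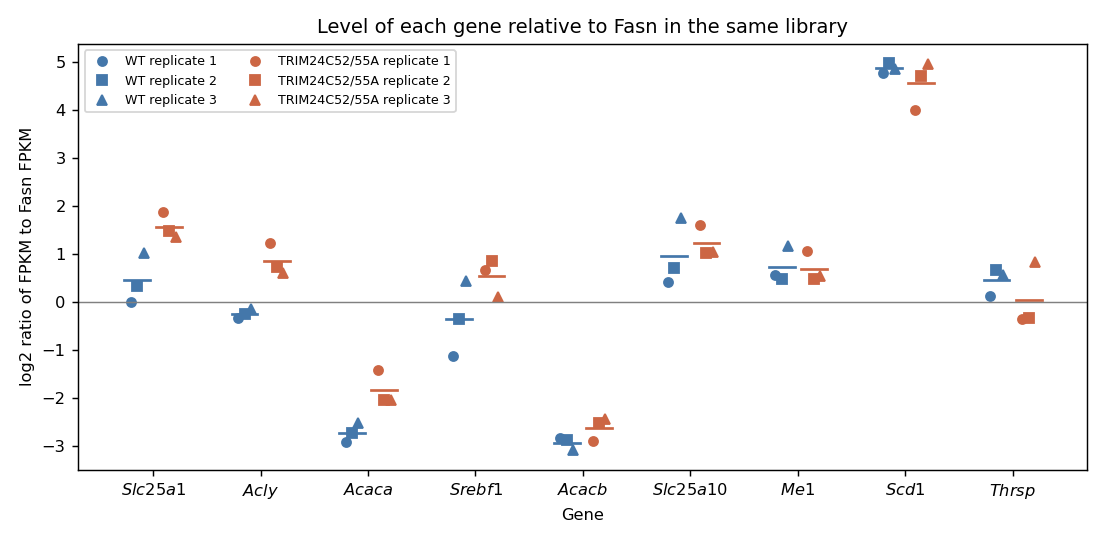
Log2 ratio of the FPKM of each gene to the FPKM of *Fasn* in the same library; blue symbols are WT and orange symbols TRIM24C52/55A livers, symbol shape gives the replicate and the line the mean of 3. For *Slc25a1*, *Acly* and *Acaca* all orange symbols lie above all blue ones.

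Most of the genes also varied together between livers of the same genotype. Within WT, replicate 1 was the highest liver for 7 of the 10 genes and replicate 3 the lowest for 6. Within TRIM24C52/55A, replicate 3 was the highest for 9 and replicate 1 the lowest for 8. Log2 values were taken as deviations from the mean of their genotype and compared over the 6 libraries with Pearson r, as a description with 4 degrees of freedom and no test, because 3 livers per genotype are too few for one. The libraries also share their scaling between genes. These counts and r values were not taken over all genes. Whether the lipogenesis genes vary together more than other genes do was therefore not tested. Over 45 pairs the median r was 0.58, and 34 of the pairs were above 0. Among *Acly*, *Acaca*, *Acacb*, *Fasn* and *Scd1*, a group chosen after their values were seen, r ran from 0.62 to 0.99 with a median of 0.89. The pair most alike was *Acacb* and *Fasn* (r = 0.99), followed by *Acly* and *Acaca* (r = 0.99) and *Acacb* and *Scd1* (r = 0.95).

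*Srebf1* and *Slc25a10* stood apart. The median r of *Srebf1* with the other 9 genes was -0.08 and that of *Slc25a10* -0.07, against 0.84 for *Fasn* and 0.82 for *Acacb*. In WT the liver with the least *Fasn*, replicate 3 with 60.7 FPKM, had the most *Srebf1*, 82.1 FPKM. In TRIM24C52/55A mice replicate 1 had the least of both, 26.7 FPKM of *Fasn* and 42.1 FPKM of *Srebf1*. The size of the swings differed as well. In TRIM24C52/55A livers *Scd1* ran from -1.003 to 0.71 around its mean on the log2 scale, and *Acly* from -0.07 to 0.06. Of 12215 other genes, those most like the mean deviation of the 10 were *Gm29667*, *RP23-337J18.2*, *Tyms*, *Blnk* and *Elovl5*, each with r of 0.99 or more, and with 6 libraries many genes can come this close.

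**Figure D4:**
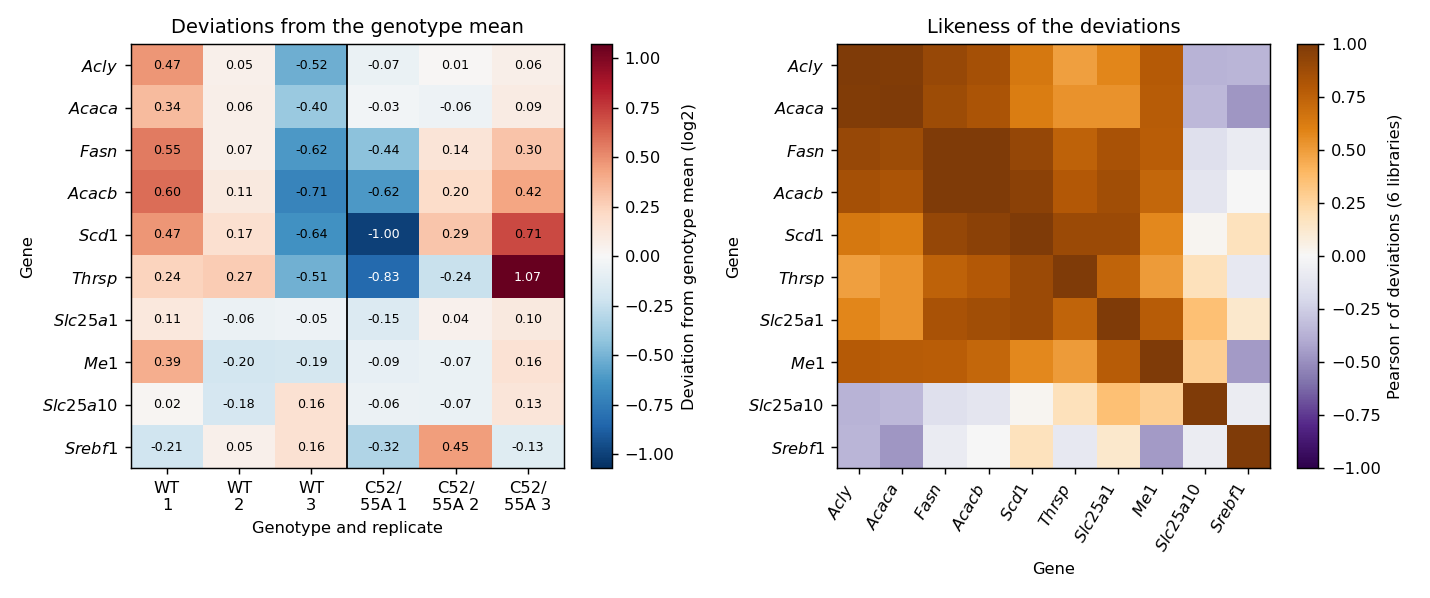
Left, deviation of each lipogenesis gene from the mean of its genotype (log2) in each of the 6 libraries; right, Pearson r of these deviations for each pair of genes. Deviations of *Fasn*, *Acacb* and *Scd1* share their sign in every library, and the rows of *Slc25a10* and *Srebf1* do not follow them.

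Defining adipocyte genes were high in 1 of these livers. *Adipoq*, *Plin1*, *Lep* and *Retn*, which define adipocytes, had 4.55, 3.32, 3.98 and 1.59 FPKM in TRIM24C52/55A replicate 2 and no more than 0.127 FPKM elsewhere. Of 12 adipocyte markers 10 were highest there, some of them near 0, such as *Acvr1c* with 0.058 and *Tshr* with 0.206 FPKM. The share of all genes highest in that library was not computed. *Cidea* was not highest there, with 0.889 FPKM against 0.590 to 2.98 FPKM in WT. Another marker, the adrenergic receptor gene *Adrb3*, had 1.99 to 2.17 FPKM in WT and 7.81 to 12.4 FPKM in all 3 TRIM24C52/55A livers (log2 fold change 1.86, limma adjusted p = 0.0007155). *Cfd* had 3.10 to 8.62 FPKM in WT and 0.112 to 2.54 FPKM in TRIM24C52/55A livers (log2 fold change -1.61, limma adjusted p = 0.0617). The sum of the 12 was 72.3 FPKM in that library, of which 33.6 FPKM were *Pnpla2*, a lipase gene that hepatocytes also express, against 31.8 and 36.7 FPKM in the other TRIM24C52/55A livers and 40.1 to 45.8 FPKM in WT. Adipocytes also express most of the lipogenesis genes, and fewer cells of a type and less RNA per cell cannot be told apart in whole liver. Without this library all 10 genes were still below WT, 4 passed the threshold (*Fasn*, *Me1*, *Slc25a10* and *Srebf1*), and the log2 fold change of *Fasn* was -1.40. Sums of Kupffer cell and macrophage, endothelial and stellate markers overlapped between genotypes, at 144 to 216, 76.4 to 92.3 and 120 to 149 FPKM over the 6 libraries, as did those of cholangiocyte markers at 21.8 to 53.8 FPKM. All 8 Kupffer cell and macrophage markers had fold changes below 0 (median log2 -0.26), as did 65.5% of all genes tested, and 0 passed. An unadjusted p under 0.05 (limma) was reached by 2 of them, near the 23.6% of all genes tested. The endothelial marker *Lyve1* fell, from 5.00 to 8.39 FPKM in WT to 0.974 to 2.84 FPKM in TRIM24C52/55A livers (log2 fold change -1.26, limma adjusted p = 0.0281). The other 5 endothelial markers did not pass, with log2 fold changes from -0.18 for *Stab2* to 0.08 for *Kdr*. The 6 lymphocyte markers summed to 1.92 to 2.21 FPKM in WT and 3.00 to 3.27 FPKM in TRIM24C52/55A libraries, of which only *Cd4* was over the filter (log2 fold change 1.11, limma adjusted p = 0.00108). Without *Cd4* the sums were 1.57 to 1.81 FPKM in WT and 0.877 to 1.29 FPKM in TRIM24C52/55A libraries, lower without overlap. The part of these cells in the results was not tested.

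Of 23 regulators of lipogenic transcription, 4 fell, 0 rose and 19 did not pass (limma, adjusted over all genes), with a median log2 fold change of -0.12. Over all genes tested 6.09% fell and 1.64% rose by this rule. Fold changes lay below 0 for 17 of the 23, against 65.5% of all genes tested. An unadjusted p under 0.05 (limma) was reached by 6 of the 23, near the 23.6% of all genes tested. *Pparg*, a nuclear receptor that drives fat storage, had 9.42, 5.55 and 8.39 FPKM in WT and 1.90, 2.27 and 2.71 FPKM in TRIM24C52/55A replicates 1 to 3 (adjusted p = 0.00491 from limma). *Mlx*, the partner of ChREBP, fell from 20.7 ± 0.570 to 15.6 ± 0.774 FPKM (SD, n = 3 each, adjusted p = 0.0245 from limma). *Nr1h2*, which encodes LXRβ, fell from 21.3 ± 1.37 to 15.0 ± 2.04 FPKM (SD, n = 3 each, adjusted p = 0.0342 from limma), and the log2 fold change of *Bhlhe40*, a transcriptional repressor, was -0.66 (adjusted p = 0.0199 from limma). Over 16 alternatives the call of *Pparg* held in 16, of *Bhlhe40* in 13, of *Mlx* in 9 and of *Nr1h2* in 7, with adjusted p-values (limma) up to 0.106 for *Mlx* and 0.135 for *Nr1h2*. The calls of *Mlx* and *Nr1h2* were lost with median-of-ratios scaling and with quantile normalization. *Mlxipl* differed in the other direction, with 98.4, 103 and 91.4 FPKM in WT and 108, 146 and 112 FPKM in TRIM24C52/55A livers (log2 fold change 0.31, adjusted p = 0.161 from limma), without overlap. *Insig1*, which holds SREBP precursors in the endoplasmic reticulum, had 171 ± 52.2 and 135 ± 38.3 FPKM (SD, n = 3 each), with overlapping groups. *Nr1h3*, which encodes LXRα, had 47.2 ± 4.24 and 42.5 ± 3.03 FPKM (SD, n = 3 each), also overlapping.

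Of 31 genes tested that bring carbon and NADPH to the pathway, 17 fell, 0 rose and 14 did not pass (limma). Over all genes tested 6.09% fell and 1.64% rose. All 31 fold changes were below 0, as were 65.5% of those of all genes, and the median was -0.47 against -0.08 over all genes. *Pklr*, liver pyruvate kinase and a target of ChREBP, had 136 ± 29.1 and 83.2 ± 19.8 FPKM (SD, n = 3 each, adjusted p = 0.0716 from limma), without overlap. *Pcx* (pyruvate carboxylase), *Pdha1* (a pyruvate dehydrogenase subunit), *Mpc1* (the mitochondrial pyruvate carrier), *Cs* (citrate synthase) and *Idh2* (mitochondrial isocitrate dehydrogenase) fell, with log2 fold changes from -0.76 for *Pcx* to -0.47 for *Cs*. The calls of *Pcx* and *Pdha1* held in 16 of 16 alternatives, and those of *Mpc1*, *Cs* and *Idh2* in 14. *G6pdx*, which makes NADPH in the pentose phosphate pathway, had 2.68 ± 0.301 and 2.24 ± 0.271 FPKM (SD, n = 3 each), with a log2 fold change of -0.18 (adjusted p = 0.386 from limma).

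Of 14 genes that control acetyl-CoA carboxylase, among them the subunits of AMP-activated kinase, 0 passed the threshold and the median log2 fold change was -0.09. An unadjusted p under 0.05 (limma) was reached by 4 of the 14, near the 23.6% of all genes tested. *Mid1ip1*, the relative of *Thrsp*, had 29.4 ± 2.31 and 25.3 ± 1.12 FPKM (SD, n = 3 each), with a fold change of -0.21 on the log2 scale (adjusted p = 0.189 from limma). Of 25 genes that modify or esterify new fatty acids, 7 fell and 1 rose, where 6.09% of all genes tested fell and 1.64% rose. Their median log2 fold change was -0.36. *Elovl6*, which lengthens palmitate to stearate, had 26.8, 21.1 and 14.4 FPKM in WT and 5.98, 6.90 and 15.3 FPKM in TRIM24C52/55A replicates 1 to 3. Its highest TRIM24C52/55A liver, replicate 3, was also the highest for *Thrsp* and *Scd1*, and its log2 fold change of -1.13 did not pass (adjusted p = 0.0768 from limma). The elongases *Elovl5* and *Elovl2*, the desaturases *Fads1* and *Fads2*, and *Hsd17b12* fell, by up to a log2 fold change of -1.23 for *Elovl5*, while the elongase *Elovl3* rose by 1.03. Of 16 alternatives these calls held in 16 for *Fads2*, 15 for *Elovl5*, 13 for *Fads1*, 12 for *Elovl3*, 9 for *Elovl2* and 8 for *Hsd17b12*. Median-of-ratios scaling and quantile normalization ended those of *Elovl2* and *Hsd17b12*, whose adjusted p (limma) reached 0.112 and 0.161.

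**Figure D5:**
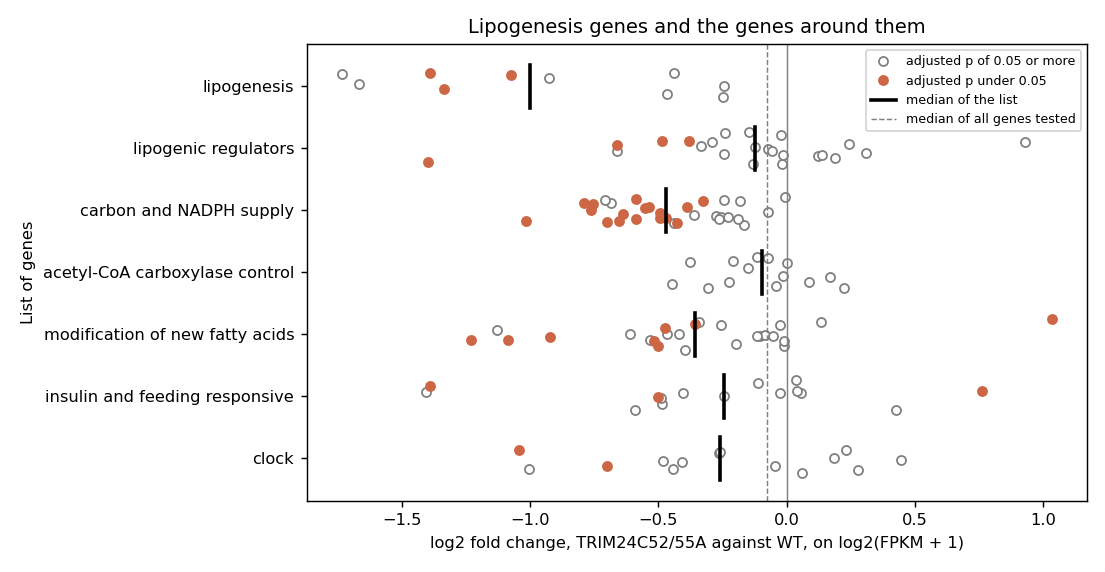
Log2 fold change between TRIM24C52/55A and WT livers of every tested gene in 7 lists; filled points have an adjusted p under 0.05, black bars are list medians and the dashed line is the median of all genes tested. The lipogenesis genes have the lowest median (-1.001), and the genes of carbon and NADPH supply lie below 0 throughout, where 65.5% of all genes tested do so.

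Genes that respond to insulin, feeding or the hour of the day were read as well. Of 15 insulin and feeding genes, 2 fell and 1 rose, where 6.09% of all genes tested fell and 1.64% rose. *Irs2*, the insulin receptor substrate that falls after insulin, rose from 2.85 ± 0.830 to 5.45 ± 0.814 FPKM (SD, n = 3 each, adjusted p = 0.0373 from limma). *Cpt1a*, the gate of mitochondrial fatty acid oxidation, fell from 121 ± 12.8 to 84.5 ± 1.94 FPKM (SD, n = 3 each, adjusted p = 0.0170 from limma), and *Fgf21*, a hormone of the fasted liver, fell from 12.2 ± 6.18 to 3.75 ± 0.624 FPKM (SD, n = 3 each, adjusted p = 0.0248 from limma). Of 14 clock genes, 2 fell, *Per1* (log2 fold change -1.04) and *Ciart* (log2 fold change -0.70). The calls of *Irs2*, *Cpt1a* and *Per1* held in 11 of 16 alternatives, that of *Fgf21* in 12 of 16 and that of *Ciart* in 7 of 15, with adjusted p-values (limma) up to 0.135 for *Irs2*, 0.0724 for *Cpt1a*, 0.0878 for *Fgf21*, 0.103 for *Per1* and 0.127 for *Ciart*. The part of feeding state and of the hour of collection in the fall of *Fasn*, *Me1* and *Slc25a10* was not tested.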

How the data were processed

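RNA of 6 livers, 3 WT and 3 TRIM24C52/55A, was grouped by the labels. The authors deposited 1 table of FPKM per library, which lists only values above 0, and genes not listed were set to 0. The submitters' processing notes name bcl2fastq, Salmon 0.14.0, DESeq2 1.30.0 and build GRCm38 without giving their roles. Genes averaging 0.5 FPKM or more were tested as log2(FPKM + 1), with genotype as the only term, by limma (version 3.58.1, under R 4.3.3, eBayes with trend) and Benjamini-Hochberg adjustment, after the code was tested on simulated data. The pseudocount of 1 understates changes of low genes. Each library is a separate mouse. Exact permutation tests used scipy 1.17.1 on FPKM or log2 ratios. Intervals of the files were set against GENCODE M21, adding 1 to their starts. The lipogenesis genes and the other lists were chosen with earlier results of these data known. Besides the 10 genes, the rule names *Mlxipl*, *Nr1h3*, *Pparg*, *Insig1*, *Mid1ip1*, *Elovl6*, *G6pdx* and *Pklr*, at most 6 called genes per list and the 5 genes most like the lipogenesis genes; some genes under this rule are not reported here. *Scd2*, *Rai1*, *Cd4* and single cell markers were named after their values were seen. The 16 alternatives were other pseudocounts, filters, scalings and limma settings, the replicate block and each library left out. The ratios to *Fasn* and their leave-one-out values were chosen after seeing the data.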

Additional observations from a re-analysis of the deposited data

How the results depend on the processing

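All 10 lipogenesis genes stayed below WT under each of 16 alternatives, and their median log2 fold change ran from -0.83 (without TRIM24C52/55A replicate 1) to -1.14 (without TRIM24C52/55A replicate 3) when 1 library was left out. The number past the threshold was 3, rose to 5 with TPM and with array weights, in both cases with *Scd1* and *Thrsp* added, was 4 with a mean of at least 1 FPKM, was 2 without *Fasn* with no filter, median-of-ratios scaling and robust eBayes, and ran from 2 to 5 with 1 library left out. Over all genes the count of 944 became 347 without a filter on low values, 1555 with TPM and 578 with the replicate block, and ran from 294 to 1280 with 1 library left out. The balance of calls depended on scaling, with 744 lower and 200 higher as reported and 406 lower and 250 higher with median-of-ratios scaling. With 1 library left out, the log2 ratio difference to *Fasn* ran from 0.92 to 1.23 for *Acly*, 0.68 to 0.995 for *Acaca* and 0.89 to 1.40 for *Slc25a1*. TPM moved the median of all genes to -0.14. Same-numbered livers of the genotypes are different mice. Their deviations correlated at -0.12, -0.10 and 0.00, and 0 of 6 libraries were most like their own number. So few livers cannot show whether same-numbered mice shared a litter or a batch, and the labels do not say. With the replicate block 2 lipogenesis genes passed, *Me1* and *Slc25a10*. The median r of the deviations ran from 0.55 to 0.71 with 1 library left out. Signs turned for *Nr1h3* with quantile normalization (log2 fold change 0.011) and for *Blnk* with quantile normalization (0.0086), without WT replicate 1 (0.04) and without TRIM24C52/55A replicate 1 (0.10). Of 686 values for the 43 genes under the naming rule, 568 kept direction and side of the threshold, 100 lost and 14 gained a call. The causes of these changes were not tested.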
